A study of Macaca mulatta with 22 samples.

Results

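CGA, PLAC8, FABP4 and LY6G6C are 4 symbols grouped as early placental products, and an entry of each was high in 8-cell or blastocyst embryos of the rhesus macaque. They were taken from the 35468 entries of the deposited table by symbol, and each symbol has 1 entry under that rule. The name FABP4 is in doubt for its entry, as described with its values. They were chosen by their RPKM values over all 22 libraries, because CGA is high in 8-cell embryos and the other 3 in blastocysts, so their levels are given as a description with no test. The study sequenced RNA from individual oocytes and embryos, without a treatment or a mutant. Oocytes came post mortem from superovulated donors and were GV (germinal vesicle, 2 libraries), MI (metaphase I, 2) or MII (metaphase II, 3). Embryos were made by intracytoplasmic sperm injection and grown in vitro, and were PN (pronuclear, 3 libraries), 2C (2-cell, 2), 4C (4-cell, 3), 8C (8-cell, 2), Mo (morula, 3) or Bl (blastocyst, 2). A library is 1 whole oocyte or embryo, amplified with a low-input kit. No label names a donor, so spreads and p-values cover differences between single oocytes or embryos that may share parents.

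CGA encodes the alpha subunit that pairs with a different beta subunit in chorionic gonadotropin, luteinizing hormone, follicle-stimulating hormone and thyrotropin; in primates chorionic gonadotropin is made by trophoblast, the lineage that forms the placenta. PLAC8 is a small cysteine-rich protein first known from placenta and also made by white blood cells. Fatty acid-binding proteins such as FABP4 carry lipids inside the cell, and FABP4 is best known from adipocytes and macrophages. LY6G6C belongs to the LY6 family of proteins held at the cell surface by a lipid anchor, and its gene lies in the class III region of the major histocompatibility complex (MHC). Trophectoderm, the outer layer of the blastocyst, is the earliest trophoblast.

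Levels are RPKM, reads per kilobase of gene model and per fixed number of mapped reads, so they are set per length. Depth estimated from the low values was 5.51 to 21.5 M reads per library. Mo library 2 stands apart from all others, with 4277 entries at 1 RPKM or more where the other libraries have 6763 to 10017, and all 4 genes are listed at 0 in it. ACTB, GAPDH and the other housekeeping genes looked up, 11 in all, were above 0 in every library. Some came near the floor, with lowest values of 0.543 RPKM for PPIA, 1.41 RPKM for ACTB and 3.28 RPKM for GAPDH. The lowest values of the others were 5.02 RPKM (EEF2) to 219 RPKM (RPLP0). All 4 genes passed the filter on low values, at least 1 RPKM in at least 2 libraries, which 14312 entries passed. They could pass it through the stage they were picked for.

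CGA was an 8-cell transcript in these libraries. The entry, ENSMMUG00000000222, lies on chromosome 4 from 83033564 to 83036388. Its level was 73.9 RPKM in 8C library 1 and 33.7 RPKM in 8C library 2, a mean of 53.8 ± 28.4 RPKM (SD, n = 2). In the other 20 libraries it was listed at 0 in 16. The remaining 4 had 0.89 RPKM (GV library 2), 0.508 and 0.113 RPKM (4C libraries 2 and 3) and 1.91 RPKM (Mo library 1). The lower 8C library was thus 17.7 times as high as the next library of any stage. GV, 4C and Mo overlap in their levels, and MI, MII, PN, 2C and Bl have CGA at 0 throughout.

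The 8C levels of CGA rest on about 950 reads in library 1 and 116 in library 2, which is also the shallowest library at 5.51 M reads. The 2.20-fold gap between these embryos lies between the median gap (1.5-fold) and the 90th percentile (2.98-fold) of the 2549 entries at 10 RPKM or more in that pair. CGA ranked 748 of 15148 entries above 0 in 8C library 1 and 1227 of 13847 in 8C library 2. Mo library 1 held about 19 CGA reads, while the other Mo libraries held none. Both Bl libraries held none, and a count of 0 allows up to 3 reads, or 0.395 RPKM in Bl library 1 and 0.338 RPKM in Bl library 2 (counting error only). Under median-of-ratios scaling the 8C mean was 59.0 ± 27.6 RPKM.

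**Figure D1:**
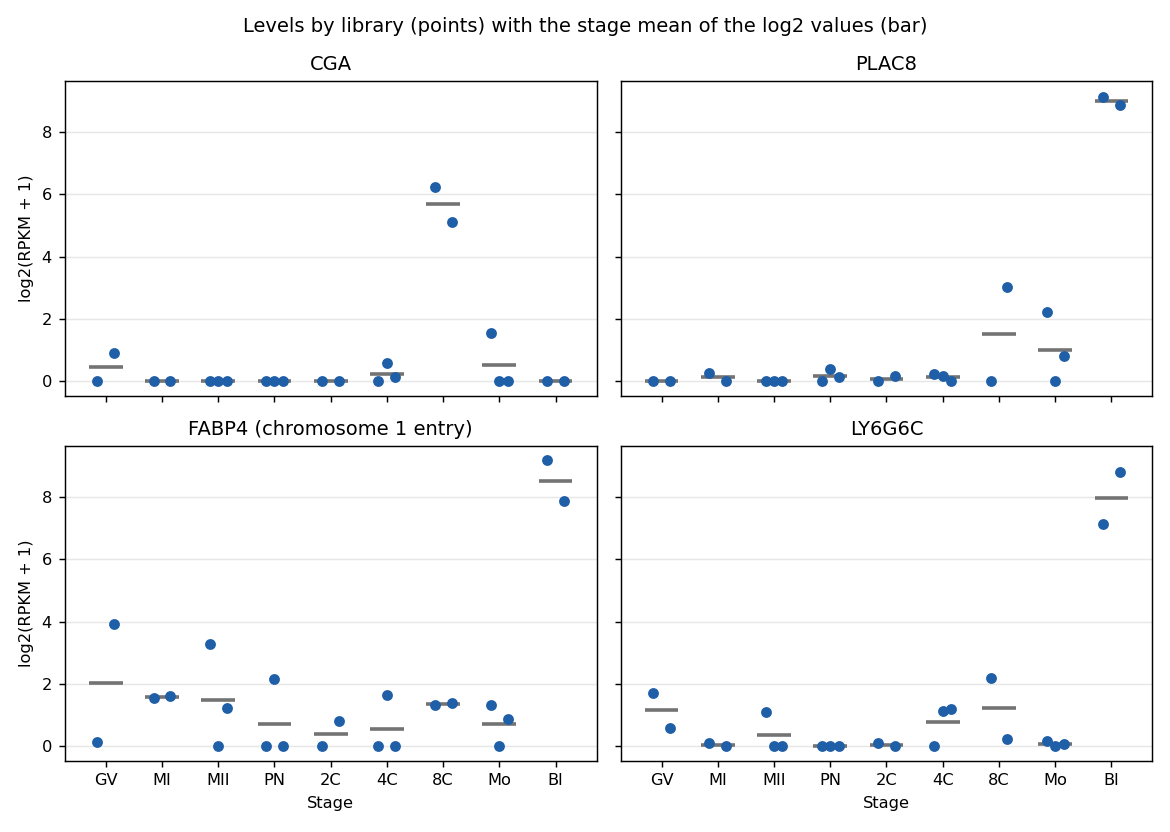
Level of CGA, PLAC8, FABP4 (the chromosome 1 entry) and LY6G6C as log2(RPKM + 1) on the y axis, by stage on the x axis. Each point is 1 library and each bar is the mean of the log2 values of a stage (n = 2 or 3). CGA stands above all other libraries in the 2 8C embryos and the other 3 genes in the 2 Bl embryos.

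The beta subunits that could pair with the CGA product were at or near 0 where CGA was high. Both LHB entries (luteinizing hormone beta; the file gives the CGB8 name to the second) were listed at 0 in all 8C, Mo and Bl libraries, and reached at most 1.28 RPKM and 0.431 RPKM earlier. The CGB entry (chorionic gonadotropin beta, IMMRNTR1186, a name that could not be checked) reached 0.442 RPKM in a PN library and was also at 0 from 8C to Bl. FSHB, the beta subunit of follicle-stimulating hormone, reached 2.03 RPKM in MII library 3 and was at 0 from 2C on. TSHB, the thyrotropin beta subunit, was above 0 only in MII library 1 (0.936 RPKM) and Bl library 2 (0.335 RPKM). Near-identical beta subunit genes can share reads, and how such reads were counted is not given in the sources used here. The hormone receptors were low as well, with LHCGR at most 1.04 RPKM, FSHR at most 1.2 RPKM and TSHR at most 1.86 RPKM, the last 2 in 8C library 1.

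GPHA2, the alpha subunit of thyrostimulin and the closest relative of CGA in the list, had another course. It was 53.8 to 198 RPKM in oocytes, 9.37 and 15.9 RPKM at 8C, 0 to 0.713 RPKM at Mo, and 8.75 and 10.5 RPKM at Bl. GPHB5, which encodes the thyrostimulin beta subunit, was at 0 in all 22 libraries. GPHA2 and CGA were therefore both above 5 RPKM only at 8C, and at Bl only GPHA2 of the pair was above 0. The change of GPHA2 between Mo and Bl passed the test (log2 difference 2.91 ± 0.73 SE, limma adjusted p = 0.0112), but not without Bl library 1 (0.0633) or Bl library 2 (0.0720).

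**Figure D2:**
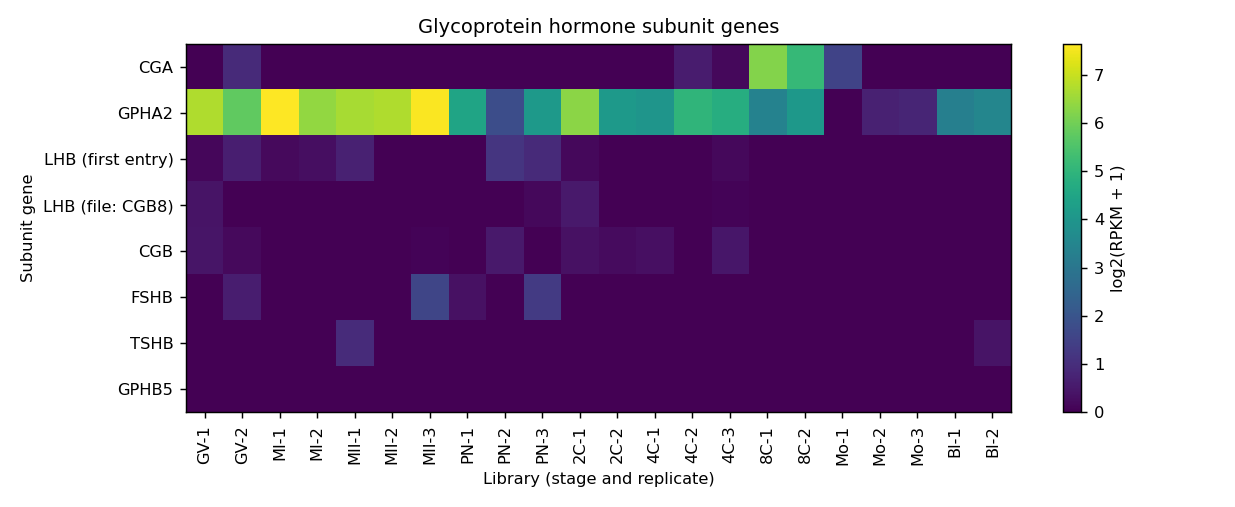
Level of 8 entries for glycoprotein hormone subunits (rows) in the 22 libraries (columns, by stage and replicate), coloured by log2(RPKM + 1). CGA is high in 8C-1 and 8C-2, GPHA2 in oocytes and less so in embryos, and the LHB, CGB, FSHB, TSHB and GPHB5 rows have no value above 2.03 RPKM.

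PLAC8 was the most even of the blastocyst genes. The entry, ENSMMUG00000022311, lies on chromosome 5 from 46461369 to 46486168. Its level was 545 RPKM in Bl library 1 and 457 RPKM in Bl library 2, a mean of 501 ± 62.1 RPKM (SD, n = 2). It was above 0 in 9 of the other 20 libraries, with 7.13 RPKM in 8C library 2, 3.72 RPKM in Mo library 1 and 0.756 RPKM in Mo library 3. The other 6 had 0.114 to 0.333 RPKM, and the lower Bl library was 64.2 times as high as 8C library 2. Bl stood above all other stages. 8C and Mo each have a library at 0 and overlap the earlier stages, so no order among these can be read.

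The PLAC8 signal at 8C and Mo was uneven between embryos. 8C library 1 was at 0 in a library of 20.6 M reads, while 8C library 2 had about 32 reads in 5.51 M. Mo libraries 1 and 3 had about 49 and 11 reads, and Mo library 2 had none. At Bl the gene had about 5466 and 5353 reads and ranked 261 of 13230 and 154 of 16906 entries above 0. The neighbouring gene COPS4, a subunit of the COP9 signalosome 3740 bp away, was 122 and 59.7 RPKM at Bl and 62.4 and 73.2 RPKM at 8C. PLAC8 thus differed by stage where the gene beside it was high at both stages. Its relative PLAC8L1 was at most 1.13 RPKM in any library.

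The entry that carries the name FABP4 by the rule is ENSMMUG00000020987, on chromosome 1 from 34143841 to 34145770, and the positions go against that name. The file itself gives it no name and calls it an uncharacterized protein. The file's own FABP4, described as the adipocyte fatty acid-binding protein, is ENSMMUG00000010906 on chromosome 8 from 83921022 to 83925536. That entry was at 0 in 21 libraries and at 0.544 RPKM in Bl library 2. The chromosome 1 entry lies 554 bp from ZCCHC17 and next to SERINC2. In the RefSeq gene table (assembly T2T-MMU8v2.0) the gene between these is FABP3, the fatty acid-binding protein of heart and muscle, and FABP4 lies between FABP9 and FABP12 on chromosome 8, as the file's own FABP4 does. It is called the chromosome 1 FABP entry from here on.

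The chromosome 1 FABP entry was 572 RPKM in Bl library 1 and 232 RPKM in Bl library 2, a mean of 402 ± 240 RPKM (SD, n = 2). Unlike CGA and PLAC8 it was above 0 at every stage, in 13 of the other 20 libraries and at 1 RPKM or more in 10 of them. GV library 2 had 14.1 RPKM against 0.097 RPKM in GV library 1, and MII library 1 had 8.67 RPKM against 0 and 1.36 RPKM in the other MII libraries. Both MI libraries (1.94 and 2.06 RPKM), both 8C libraries (1.51 and 1.63 RPKM) and 2 Mo libraries (1.49 and 0.83 RPKM) held low levels. The lower Bl library was 16.5 times as high as GV library 2, the smallest such ratio of the 4 genes. The stages before Bl overlap one another and have no clear order. The Bl levels rest on about 3806 and 1806 reads, GV library 2 on 152 and MII library 1 on 97.

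FABP5, the epidermal fatty acid-binding protein, was far more abundant in the same embryos. It was 9599 and 5185 RPKM at Bl, where it ranked above every other entry in both libraries, against 503 to 1180 RPKM at Mo. The chromosome 1 FABP entry was 5.96% and 4.48% of the FABP5 level in Bl libraries 1 and 2, against 0% to 0.177% in the Mo libraries. The ratio was 12.3% in MII library 1 and 2.51% in GV library 2, so the share of the chromosome 1 entry did not follow FABP5 across stages. FABP9, a testis-type member, was 27.8 to 226 RPKM in oocytes and at 0 in every Mo and Bl library. FABP6 was at most 6.17 RPKM (Mo library 1), FABP12 at most 4.28 RPKM and FABP7 at most 0.394 RPKM, and the Ensembl entries of FABP2 and PMP2 were at 0 throughout. Another entry named FABP2 (IMMRNTR4362, a name that could not be checked) was above 0 in 19 libraries. Its highest level was 5.39 RPKM, in MI library 1.

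**Figure D3:**
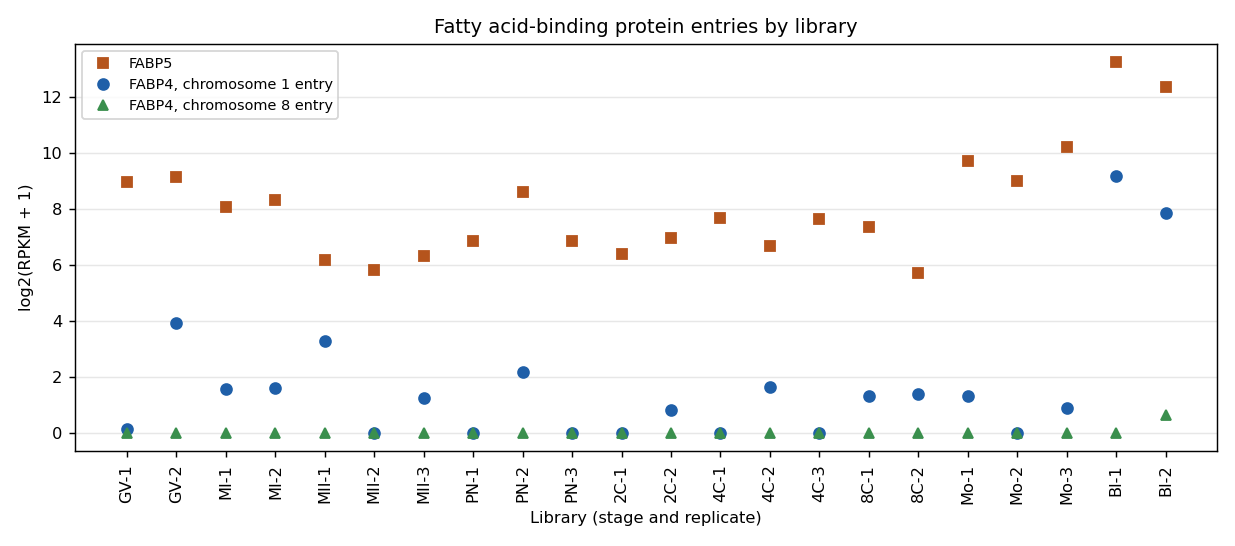
Level of FABP5 (squares), the chromosome 1 entry named FABP4 (circles) and the chromosome 8 entry named FABP4 (triangles) as log2(RPKM + 1) in each of the 22 libraries. FABP5 is high throughout and highest in Bl-1 and Bl-2, the chromosome 1 entry stands out only in those 2 libraries, and the chromosome 8 entry is at 0 except in Bl-2.

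LY6G6C was high in both blastocysts but uneven between them. The entry, ENSMMUG00000015693, lies on chromosome 4 from 31363800 to 31366799. Its level was 139.9 RPKM in Bl library 1 and 444 RPKM in Bl library 2, a mean of 292 ± 215 RPKM (SD, n = 2). It was above 0 in 11 of the other 20 libraries, and at 1 RPKM or more in 5 of them: 8C library 1 (3.59 RPKM), GV library 1 (2.30 RPKM), 4C libraries 3 and 2 (1.29 and 1.18 RPKM) and MII library 1 (1.14 RPKM). The lower Bl library was 38.95 times as high as 8C library 1. All 3 PN libraries were at 0, and Mo libraries had at most 0.127 RPKM, about 2 reads. The GV, MII, 4C and 8C libraries overlap, so no order among these stages can be read. 8C library 1 held about 73 LY6G6C reads and 8C library 2 about 1 read.

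The genes around LY6G6C did not share its level. LY6G6E, 5588 bp away, was above 0 only in Bl library 1 (0.513 RPKM), and LY6G5C only in Mo library 1 (0.618 RPKM). MPIG6B, which encodes a platelet and megakaryocyte receptor 1656 bp away, was 0 and 0.864 RPKM at Bl, and DDAH2 was 0 and 0.924 RPKM. CLIC1, a chloride channel protein 9152 bp away, was high at 8C (76.2 and 38.7 RPKM), averaged 0.804 RPKM at Mo and was high again at Bl (87.2 and 90.7 RPKM). LY6G6C was below 4 RPKM in both 8C embryos in which CLIC1 was high.

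The 3 blastocyst genes did not rank the 2 embryos alike. PLAC8 was 1.19 times as high in Bl library 1 as in library 2, the chromosome 1 FABP entry was 2.46 times as high in library 1, and LY6G6C was 3.17 times as high in library 2. Among 2695 entries at 10 RPKM or more in that pair the median gap was 1.64-fold and the 90th percentile 3.12-fold, so the LY6G6C gap was past the 90th percentile and the other 2 were not. Scaling by median of ratios made the PLAC8 gap 1.51-fold, the FABP gap 3.13-fold and the LY6G6C gap 2.50-fold. All 3 genes were above 100 RPKM in both Bl libraries and in no other library.

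Markers of trophectoderm were present in the same blastocysts. All 12 markers used were above 0 in at least 1 Bl library, and their summed level was 49.7 to 82.4 RPKM at 8C, 20.6 to 89.5 RPKM at Mo and 1303 to 2529 RPKM at Bl. The Bl sum was mostly KRT18 (1206 and 880 RPKM) and KRT8 (1236 and 263 RPKM), keratins of simple epithelia, and GATA3, a trophoblast transcription factor, had 15.9 and 21.2 RPKM. Of the 12 markers 10 reached 1 RPKM in a Bl library. CDX2, a transcription factor on the same list, had 0.836 and 2.16 RPKM at Bl but 4.31 to 8.96 RPKM in GV and MI oocytes. KRT7 had 0.975 and 0.771 RPKM at Bl. At 8C, where CGA was high, most of the sum was SLC34A2, a phosphate transporter (31.1 and 60.5 RPKM), and DAB2, an endocytic adaptor (13.6 and 15.4 RPKM). GATA2, CLDN4 and TEAD3 were at 0 at 8C, and TEAD3 was 0 and 0.082 RPKM at Bl. SLC34A2 was 0.17 and 3.89 RPKM at Bl and DAB2 37.8 and 73.1 RPKM. Markers of the inner lineages were looked up too. Those of epiblast summed to 483 to 1208 RPKM at Bl, 696 to 2781 RPKM at Mo and 1598 to 2179 RPKM at GV. The largest at Bl were ARGFX (582 and 129 RPKM) and DPPA5 (247 and 194 RPKM). Of these 10 markers 7 reached 1 RPKM in a Bl library, but not SOX2, KLF17 or PRDM14. Those of primitive endoderm summed to 26.9 to 79.4 RPKM at Bl, 18.5 to 133 RPKM at Mo and 66.4 to 84.3 RPKM at GV. Of these 9 markers 6 reached 1 RPKM in a Bl library, but not SOX17, GATA4 or FOXA2. The part of trophectoderm cell number in the Bl levels of PLAC8, the FABP entry and LY6G6C was not tested. In whole embryos, fewer cells of a type and less RNA per cell cannot be told apart.

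Markers of other cells in which these genes are known were also looked up. For white blood cells, where PLAC8 is also made, 9 of 10 markers had an entry, with a sum of 15.01 to 25.0 RPKM at Bl and 4.39 to 9.55 RPKM at Mo; PTPRC, AIF1 and LAPTM5 were at 0 at Bl. Most of the Bl sum was TYROBP, a signalling adaptor of myeloid and natural killer cells, with 23.8 and 9.41 RPKM at Bl and 1.11 to 5.02 RPKM at Mo, and its part in the PLAC8 level was not tested. For adipocytes and endothelium the sum of 10 markers was 30.9 to 113 RPKM at Bl and 0.96 to 17.8 RPKM at Mo, with the adipocyte genes ADIPOQ and LPL at 0 at Bl and LEP giving 29.1 and 107 RPKM. For pituitary, the other main source of CGA, 7 of 8 markers had an entry, with a sum of 9.69 to 13.3 RPKM at 8C, where FSHB, LHB, TSHB, POMC and PITX1 were at 0. That sum was POU1F1, a pituitary transcription factor (8.48 and 5.77 RPKM), and the hormone prolactin, PRL (4.85 and 3.93 RPKM). Both were also above 0 in every library before 8C, where CGA was at or near 0. Oocyte markers summed to 2.79 to 6.26 RPKM at Bl and 207 to 230 RPKM at 8C, so the CGA peak came in embryos that still held oocyte transcripts and the other 3 came after these had gone low.

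Over the 22 libraries, Pearson's r of log2(RPKM + 1) was 0.869 between PLAC8 and the chromosome 1 FABP entry, 0.898 between PLAC8 and LY6G6C and 0.868 between the FABP entry and LY6G6C. These values are a description and rest on the 2 Bl libraries, since the points share stage, depth and library and most are near 0. CGA had r of 0.024, -0.038 and 0.004 with PLAC8, the FABP entry and LY6G6C.

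The genes most like each member over the 22 libraries were less abundant than it. For CGA they were DPYSL5 (r = 0.988), CFAP126 (0.986), NLRC4 (0.985), RARG (0.981) and CATSPERB (0.977). Of these CFAP126, a cilium protein, was highest at 8C with 19.3 and 9.83 RPKM, and NLRC4, an inflammasome protein, had 9.44 and 8.21 RPKM. For PLAC8 they were PHACTR1 (r = 0.980), C19ORF60 (0.980), TRIM5 (0.978), CNPY2 (0.975) and CD274 (0.971). TRIM5, an antiviral restriction factor, had 34.3 and 19.02 RPKM at Bl. The chromosome 1 FABP entry had the weakest matches, with LY6E (r = 0.927), RTKN (0.918), SFXN1 (0.917), ARMCX1 (0.917) and NUDT19 (0.915), each below 7 RPKM at Bl. For LY6G6C they were HEBP1 (r = 0.975), LEP (0.964), ANXA3 (0.963), FYB1 (0.962) and CTSE (0.962). HEBP1, a heme-binding protein, and LEP, the hormone leptin, shared the higher level in Bl library 2, with 20.9 and 29.1 RPKM in library 1 and 43.6 and 107 RPKM in library 2.

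**Figure D4:**
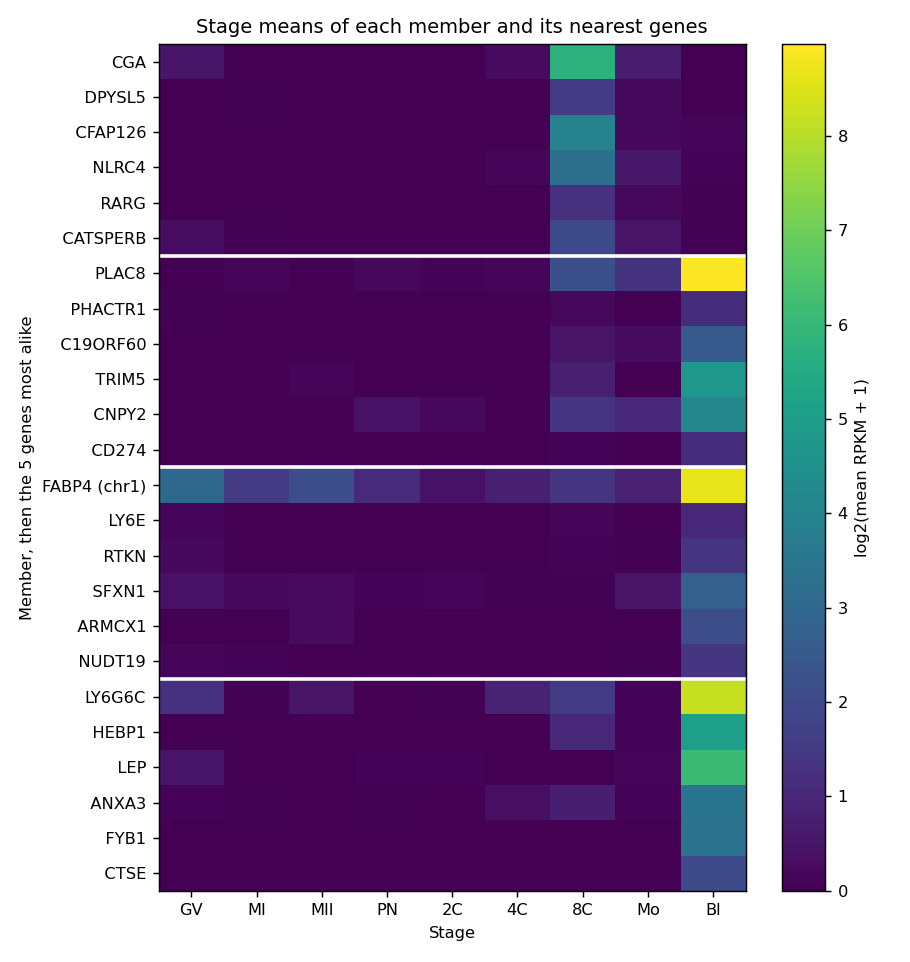
Stage means of each of the 4 genes and, under it, of the 5 genes with the highest correlation to it, coloured by log2(mean RPKM + 1). Rows are genes and columns the 9 stages. The CGA group is brightest at 8C and the other 3 groups at Bl, with the FABP entry (chr1) also faintly lit in oocytes.

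Lists of related genes were compared between neighbouring stages with limma on log2(RPKM + 1), with Benjamini-Hochberg adjustment over all 14312 tested entries and calls at adjusted p under 0.05. The 4 members were left out of the lists. Between Mo and Bl, 14.1% of the tested entries were called, 1721 higher at Bl (12.0%) and 303 lower (2.12%), with a median log2 difference of 0.23. Under median-of-ratios scaling the higher share of all calls was 68.7% and not 85.0%, and the median shifted by -0.15. Of 34 tested genes for placental hormones, steroids and trophoblast products, 13 were higher at Bl and 2 lower, with a median of 1.05. S100P, a calcium-binding protein abundant in placenta, averaged 1200 ± 343 RPKM at Bl and 0.437 ± 0.404 RPKM at Mo (SD, n = 2 and 3; log2 difference 9.72 ± 0.47 SE, limma adjusted p = 1.63e-10). VGLL1, a TEAD cofactor of trophoblast, and LEP differed by 5.54 ± 0.26 and 5.73 ± 0.37. Both reached 1 RPKM in the Bl libraries alone, so they entered the test through the stage where they were high. Their differences are given as a description. Such genes are also in the counts of higher genes, for the lists and for all tested entries. The lower genes were the transferrin receptor TFRC and the amino acid transporter SLC1A5, neither of which held without Bl library 1 (limma adjusted p = 0.0851 and 0.266).

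Of 47 tested regulators of trophoblast and gonadotropin subunit genes, 11 were higher at Bl and 1 lower (median 0.56). GATA2, listed at 0 in all Mo libraries, averaged 10.3 ± 0.921 RPKM at Bl (log2 difference 3.50 ± 0.20 SE). Like VGLL1 and LEP, GATA2 reached 1 RPKM in the Bl libraries alone, so its difference is a description. GATA3 differed by 3.94 ± 0.31. Outside Bl, GATA3 reached 1 RPKM in 8C library 1 alone (1.39 RPKM), so it passed the filter only with the Bl libraries. Its difference is therefore a description too. NR5A2, an orphan nuclear receptor, was the lower one, but not without Bl library 1 (limma adjusted p = 0.294). Of 35 tested fatty acid and lipid storage genes 8 were higher and 1 lower (median 0.11), and 3 were higher without Bl library 2. CRABP1, a retinoic acid-binding relative of the FABP family, differed by 1.49 ± 0.23, and it too reached 1 RPKM in the Bl libraries alone. FABP5 differed by 3.15 ± 0.58 (limma adjusted p = 9.43e-04). DGAT2, a triglyceride synthesis enzyme, was the lower gene (fell by 2.02, adjusted p = 6.43e-04). Of 11 tested LY6 family and PLAC8-like genes, LY6E (1.04 ± 0.18) and BAMBI (1.91 ± 0.43) were the genes called, both higher at Bl. A further 2 were lower without Mo library 2. LY6E also reached 1 RPKM in the Bl libraries alone. Of 17 tested MHC class III neighbours of LY6G6C, 3 were called, all higher (median 0.77), led by CLIC1 (5.87 ± 0.89, limma adjusted p = 1.58e-04). In a fit of only the Bl and Mo libraries FABP5, DGAT2 and BAMBI were not called (limma adjusted p = 0.0917, 0.0899 and 0.0843).

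**Figure D5:**
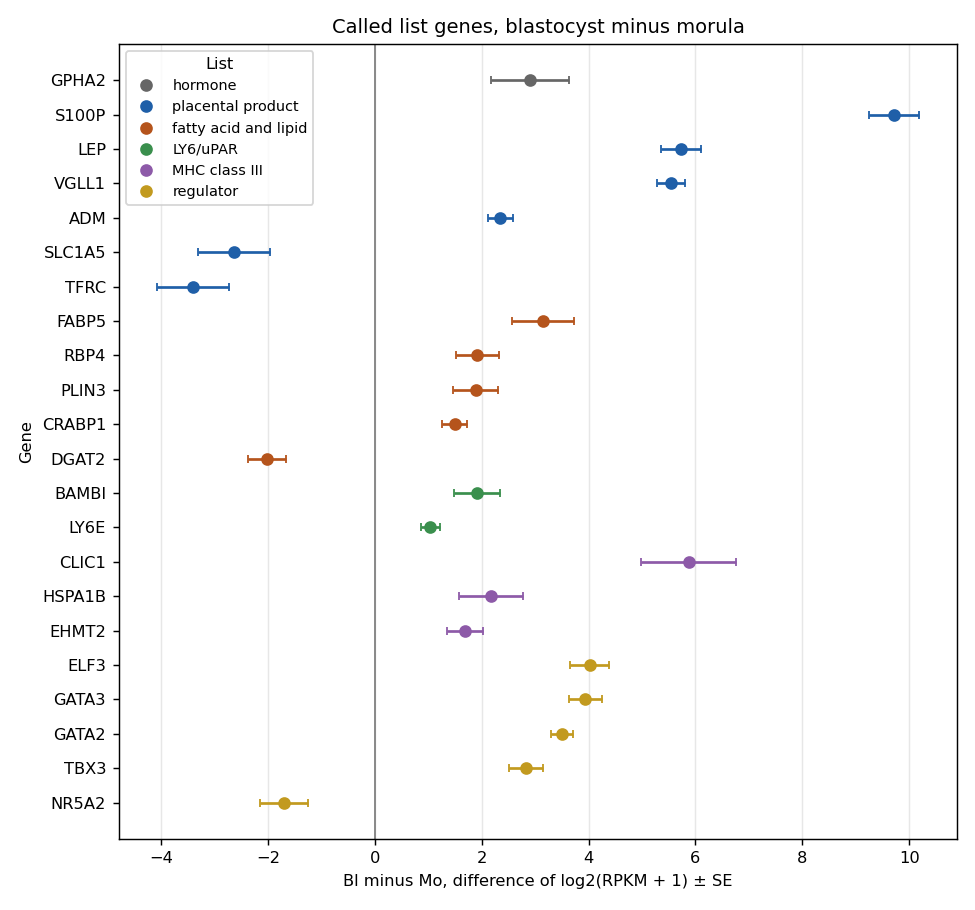
Difference of mean log2(RPKM + 1), Bl minus Mo, with its SE, for the called list genes with the smallest adjusted p, coloured by list (n = 2 Bl and 3 Mo libraries). S100P stands farthest to the right at 9.72, and TFRC, SLC1A5, DGAT2 and NR5A2 are on the lower side. Some of the higher genes, such as VGLL1, LEP and GATA2, passed the filter on low values through the Bl libraries alone.

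List genes were also compared between 4C and 8C, the stages between which CGA differed. Between 4C and 8C 24.0% of all tested entries were called, 13.9% higher at 8C and 10.2% lower (median 0.00), and of the 146 tested list genes 21 were higher and 9 lower (median 0.00). Without 4C library 3 the lower count was 4. GPHA2 was not called in this comparison. Of the placental product genes 5 were higher and 4 lower (2 lower without 4C library 3 or 8C library 1). Of the 47 regulators 9 were higher and 3 lower (1 lower without either of these libraries). Of the 35 fatty acid and lipid storage genes 3 were called (8.6%), all higher. KLF4, a zinc finger factor, averaged 52.2 ± 4.96 RPKM at 8C and 3.01 ± 2.26 RPKM at 4C (log2 difference 3.96 ± 0.65 SE, limma adjusted p = 1.64e-04). EGR1, an activator of the LHB promoter in rodent pituitary, fell by 2.28 (limma adjusted p = 3.75e-03). TFRC rose by 4.92 ± 0.67 (limma adjusted p = 2.58e-05).

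Between 8C and Mo, a comparison that shares the 8C libraries, 25.4% of all tested entries were called, 5.39% higher at Mo and 20.0% lower (median -0.38). Under median-of-ratios scaling the higher calls were 1275 and not 771, 31.2% and not 21.2% of all calls, and the median shifted by 0.11. Of the 146 list genes 6 were higher and 27 lower (median -0.33). GPHA2 fell by 3.24 (limma adjusted p = 2.81e-03) and CLIC1 fell by 5.17 (limma adjusted p = 2.52e-04). CGA, whose difference chose it and is not tested, averaged 0.636 RPKM at Mo against 53.8 RPKM at 8C.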

How the data were processed

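Per the labels' protocols, each oocyte or embryo was lysed whole, its RNA amplified with a SMARTer low-input kit, and the product made into a library with a kit for DNA. RPKM is the only unit the authors deposited, in a table of 35468 entries by 22 libraries whose columns were matched by sample title. Per the submitters' processing notes the build is Mmul_8.0.1, but the file names none, so coordinates are printed as deposited. Aligner and counting program are not given in the sources used here.

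Symbols came from the Ensembl name table, else from the file. For the lists, the file's WikiGene name replaced a placeholder name, a choice made after the file was seen, and only Ensembl entries were used. Depth was estimated from low values of features under 200 bp: 442 of 497 values (88.9%) were within 0.05 of whole reads. Reads per gene are estimates from this depth.

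Levels, SDs and ratios of the 4 genes were computed on RPKM. Lists were tested with limma 3.58.1 in R 4.3.3 on log2(RPKM + 1) of the deposited values, 1 mean per stage over all 22 libraries, trend and robust moderation, 2-sided. Differences on this scale understate changes of low genes. The members and lists were chosen with earlier results of these data known. Named genes are the 4 members, for each the 5 genes with the highest correlation, the hormone and FABP families and LY6G6 and LY6G5 genes, and the called list genes with the smallest adjusted p, of which the text prints only some. The lists hold 307 genes, of which 250 have an entry and 146 were tested. Each result was recomputed with a pseudocount of 0.1 in place of 1, without the filter or with one of 5 RPKM, and after median-of-ratios scaling. It was also recomputed with the replicate number in the fit and from the stages of a comparison alone. Each library of the 2 compared stages was left out in turn, as was Mo library 2 in every comparison. The other libraries were always kept. On simulated data, changes of 4 log2 units were recovered in 97% (8C against 4C), 89% (Mo against 8C) and 96% (Bl against Mo). Changes of 2 log2 units were recovered in 54%, 45% and 53%. Of the calls made on simulated data, 7.9%, 11.8% and 6.9% were false, in the same order. Each share was above the rate that the adjusted p threshold for calls is set to hold. The calls can thus include more false ones than that threshold implies. Python 3.11.15, numpy 2.4.6, pandas 2.3.3 and matplotlib 3.10.9 were used. No sample was left out, and 1 trophectoderm marker is not reported here.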

Additional observations from a re-analysis of the deposited data

How the results depend on the processing

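The peak means of the 4 genes moved by less than 1 SD under median-of-ratios scaling. Leaving out 1 of 2 libraries gives the level of the other, which is no check of stability. These levels were 33.7 to 73.9 RPKM for CGA at 8C, and at Bl 457 to 545 RPKM for PLAC8, 232 to 572 RPKM for the chromosome 1 FABP entry and 139.9 to 444 RPKM for LY6G6C. Counts of called list genes depended on the fit. For 8C minus 4C (21 higher and 9 lower), 12 were higher with at least 5 RPKM, 4 were lower in a fit of only the 2 stages, and leaving out 1 library gave 16 to 28 higher and 4 to 10 lower (4 without 4C library 3). For Mo minus 8C (6 and 27), the fit of only the 2 stages gave 1 and 12, and leaving out 1 library 4 to 6 and 22 to 30. For Bl minus Mo (38 and 4), 19 were higher with at least 5 RPKM, 16 higher and 0 lower were called in a fit of only the 2 stages, and leaving out 1 library gave 27 to 39 and 1 to 7 (7 without Mo library 2, 1 without Bl library 1). Over the whole table, the fit of only the 2 stages gave 968 lower entries (1453 with all stages) for 8C minus 4C, 88 higher and 1159 lower (771 and 2865) for Mo minus 8C, and 392 higher and 19 lower (1721 and 303) for Bl minus Mo. The filter at 5 RPKM gave 1298 higher for 8C minus 4C (1989), and scaling gave 671 lower for Bl minus Mo. There were 902 lower for 8C minus 4C without 8C library 1, 442 higher for Mo minus 8C without 8C library 2, and 1050 higher and 99 lower for Bl minus Mo without Bl library 1. The stricter filter tests fewer genes and the smaller fit has fewer samples. Same-numbered libraries showed little shared deviation over all tested entries (correlations from -0.026 to 0.12). This cannot exclude that some of them are paired. With the replicate block the counts were 18 and 7, 6 and 24, and 37 and 4. Of 71 list results under the naming rule, 0 reversed in these settings, 40 lost the call in at least 1 and 27 when a library was left out. With 2 or 3 libraries a stage, a gene that was not called can have changed.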
